A study of Mus musculus with 13 samples.

Results

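The genes described are the insulin-like growth factor binding protein genes Igfbp2, Igfbp3, Igfbp4, Igfbp5, Igfbp6 and Igfbp7, with the growth factor gene Igf1 and its receptor gene Igf1r. They were chosen by gene symbol, each was measured by 1 feature of the array, and all 8 were found among 22206 tested features. Expression was measured on Clariom S mouse arrays in pooled total RNA of 4T1 tumours, a transplantable mouse mammary carcinoma, grown in the mammary fat pad of BALB/c mice. The 12 tumour arrays form 6 groups of 2. In order, these are 4T1OE cells, which overexpress NLRX1, in Nlrx1-/- and in WT hosts, the overexpression control line 4T1OE-CTL in Nlrx1-/- and in WT hosts, and untransduced parental 4T1 in Nlrx1-/- and in WT hosts. The labels name 1 line of each kind, so overexpression cannot be told apart from any other difference between the lines. The host mutation lies in the mice and not in the injected cells. The number of tumours in a pool and the age of the mice were not given in the sources used here. Since nothing says how the 2 pools of a group were drawn, p-values measure only the spread between pools, which may be technical.

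Insulin-like growth factors are peptide hormones that drive growth and survival through the receptor tyrosine kinase encoded by Igf1r. The binding proteins hold the ligands in blood and tissue, lengthen their life and either block or aid their delivery to the receptor, and several also act without the ligand. In mammary tissue Igf1 comes largely from the stroma, and Igfbp5 is known for its rise in the involuting gland.

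All values are log2 expression values and all differences are differences of log2 values. The level of 1 gene is compared only between arrays, never with the level of another gene. The design text states that the array service advised leaving out 1 sample under a code that the labels do not carry. It was inferred to be Nlrx1-/- parental replicate 1, which had the lowest median correlation with the other arrays (0.896, against 0.958 to 0.981 on the others). The 11 remaining arrays were fitted, and values are shown for all 12. The label check was met for 4T1OE, with Nlrx1 at 9.31 to 10.7 on the 4 4T1OE arrays, against 5.99 to 7.06 on the 4 4T1OE-CTL arrays. On the fitted parental arrays Nlrx1 was 6.135 to 7.13, so it cannot tell 4T1OE-CTL from parental tumours. In tumours the Nlrx1 feature also reads the injected cells, so it does not check the host genotype. The 4T1OE arrays had a wider spread of values (standard deviation over features 3.09 to 3.12) than the 4T1OE-CTL arrays (2.78 to 3.07) and the fitted parental arrays (2.89 to 3.07). Skeletal muscle markers (10 of 10 measured) had means of 9.49 to 11.2 on WT 4T1OE replicate 1, Nlrx1-/- 4T1OE-CTL replicate 2 and WT 4T1OE-CTL replicate 1, and of 5.50 to 7.35 elsewhere. Lymphoid markers (7 of 8 measured) had means of 8.18 to 9.87 on replicate 1 of the 3 Nlrx1-/- groups and of 5.15 to 6.36 elsewhere. In bulk tissue, fewer cells of a type and less RNA per cell cannot be told apart.

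None of the 8 genes passed the test in any of the 7 comparisons fitted (limma, Benjamini-Hochberg adjustment over all features, adjusted p threshold 0.05). Igfbp5 stood out in its range, being high in WT hosts carrying 4T1OE-CTL tumours and low to moderate in the other 5 groups. Igfbp2 had the narrowest range of the 8. At an unadjusted p under 0.05, 3 of the 8 stood between 4T1OE-CTL and parental tumours (Igfbp5, Igfbp6 and Igfbp7), 2 between 4T1OE and parental tumours (Igf1 and Igfbp6), and 1 each in WT hosts between 4T1OE and 4T1OE-CTL tumours and in the interaction (Igfbp5 in both). Of all 22206 features 15.9%, 13.8%, 8.07% and 3.27% were at an unadjusted p under 0.05 in these 4 comparisons. Outside the 8 genes, the mannose 6-phosphate and IGF2 receptor gene Igf2r, the adaptor genes Irs1, Irs2 and Shc1, the growth hormone receptor gene Ghr and the transcription factor gene Foxo1 passed in comparisons involving the 4T1OE-CTL line.

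**Figure D1:**
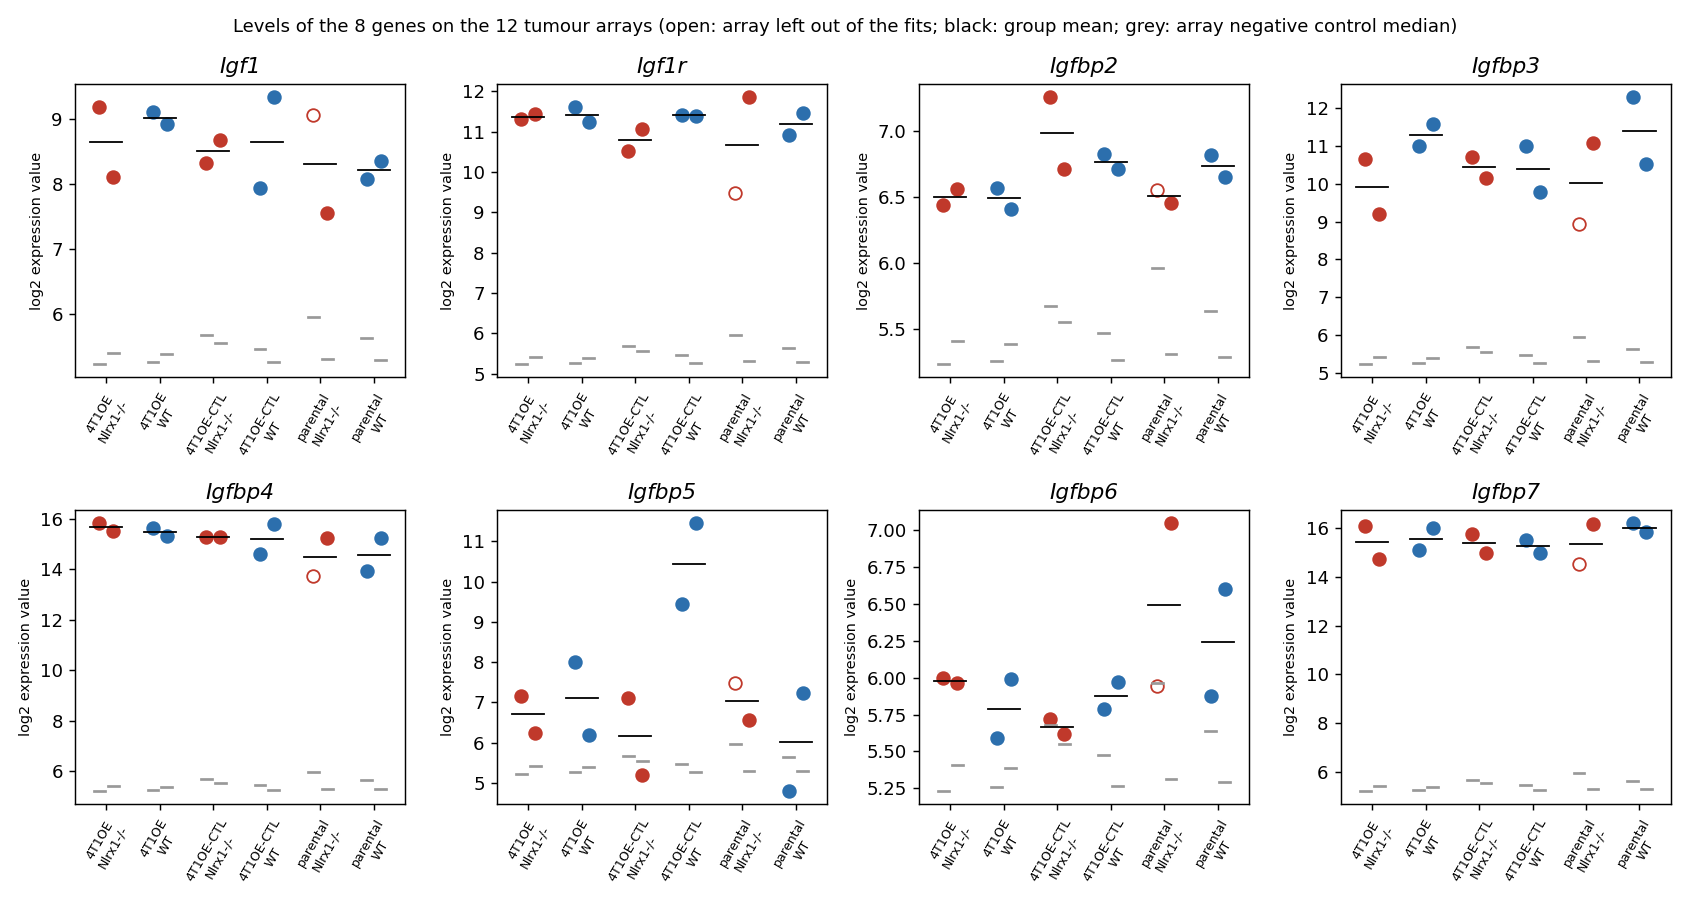
Log2 expression value (vertical axis) of each of the 8 genes in the 6 groups (horizontal axis, 2 arrays each). Filled points are fitted arrays, the open point is Nlrx1-/- parental replicate 1, red and blue are Nlrx1-/- and WT hosts, black lines are means of both arrays of a group and grey lines the median of the negative control features of each array. Igfbp5 lies at 9.44 and 11.45 on the WT 4T1OE-CTL arrays and at 7.9996 or less on the other 10.

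Igf1, the ligand, was 9.18 and 8.10 in 4T1OE tumours of Nlrx1-/- hosts and 9.10 and 8.92 in those of WT hosts. In 4T1OE-CTL tumours it was 8.33 and 8.68 in Nlrx1-/- hosts and 7.94 and 9.33 in WT hosts. Parental tumours had 9.05 and 7.55 in Nlrx1-/- hosts, and 8.07 and 8.35 in WT hosts. The lines overlapped. The mean was 8.83 ± 0.494 in 4T1OE (SD, n = 4), 8.57 ± 0.591 in 4T1OE-CTL (n = 4) and 7.99 ± 0.404 in parental tumours (n = 3). The fitted difference was 0.89 between 4T1OE and parental tumours (95% interval 0.15 to 1.64, limma adjusted p = 0.254), which was 0.57 with all 12 arrays, and 0.26 between 4T1OE and 4T1OE-CTL tumours (-0.42 to 0.94, adjusted p = 0.638). Macrophage markers (9 of 10 measured, none below background on all 12 arrays) had list means of 11.3 to 11.6 on 4T1OE arrays. They were 9.03 to 10.1 on 4T1OE-CTL and 9.44 to 10.9 on fitted parental arrays, which overlapped. Fibroblast markers (9 of 10 measured) ran opposite to the Igf1 means, at 8.06 to 8.66, 8.45 to 9.32 and 9.31 to 10.2 in the same lines. The part of either list in the Igf1 values was not tested.

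Igf1r, the receptor tyrosine kinase gene, was 11.31 and 11.45 in 4T1OE tumours of Nlrx1-/- hosts and 11.61 and 11.24 in those of WT hosts. The 4T1OE-CTL values were 10.52 and 11.06 in Nlrx1-/- hosts and 11.43 and 11.40 in WT hosts. The parental values were 9.48 and 11.86 in Nlrx1-/- hosts, and 10.92 and 11.46 in WT hosts. The lowest value belonged to the array left out of the fits, and the other 11 spanned 1.34. The difference between 4T1OE and 4T1OE-CTL tumours was 0.30 (95% interval -0.27 to 0.86, limma adjusted p = 0.498). In Nlrx1-/- hosts alone it was 0.58 (-0.10 to 1.26, adjusted p = 0.301) and the 2 arrays of each line did not overlap. How many of all features do so there was not counted, and 20.8% stood at an unadjusted p under 0.05 (limma). In WT hosts the difference was 0.01 (-0.67 to 0.69, adjusted p = 0.996) and the lines overlapped. The interaction was 0.57 (-0.39 to 1.53, adjusted p = 0.999). Between hosts it was -0.08 (-0.57 to 0.40).

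Igfbp5, a matrix-bound binding protein, was 7.16 and 6.24 in 4T1OE tumours of Nlrx1-/- hosts and 7.9996 and 6.20 in those of WT hosts. Tumours of the 4T1OE-CTL line had 7.11 and 5.20 in Nlrx1-/- hosts and 9.44 and 11.45 in WT hosts. Tumours of parental 4T1 had 7.49 and 6.58 in Nlrx1-/- hosts, and 4.81 and 7.23 in WT hosts. It varied most of the 8, and the WT 4T1OE-CTL group came first with a mean of 10.44 ± 1.42 (SD, n = 2) and shared no value with any other group. How many of all features set 1 group apart in this way was not counted. The other 5 group means ran from 6.02 to 7.10, and each of those groups overlapped its neighbours in that order. Values of 5.20 on Nlrx1-/- 4T1OE-CTL replicate 2 and 4.81 on WT parental replicate 1 were under the negative control medians of those arrays. The range of 6.63 over 12 arrays was exceeded by 0.365% of all features tested, whose median range was 1.54. The pooled standard deviation between pools of a group was 1.33 for Igfbp5, against 0.337 for the median feature.

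The difference in Igfbp5 between 4T1OE and 4T1OE-CTL tumours was -3.34 in WT hosts (95% interval -5.52 to -1.16, unadjusted p = 0.00671, limma adjusted p = 0.407). In that comparison 0.0135% of features were called, 3 of 22206. In Nlrx1-/- hosts the difference was 0.55 (-1.63 to 2.73, adjusted p = 0.775), where 1.19% of features were called, 265 of 22206. The interaction, the difference in Nlrx1-/- minus that in WT hosts, was 3.89 (0.81 to 6.97, unadjusted p = 0.0186, adjusted p = 0.999), and 0% of features were called for it, with 726 at an unadjusted p under 0.05. Over hosts the difference between the lines was -1.40 (-3.45 to 0.66, adjusted p = 0.381). It was -0.51 without WT 4T1OE-CTL replicate 2, -0.82 without WT 4T1OE replicate 2, -2.27 without Nlrx1-/- 4T1OE-CTL replicate 2, -2.61 without the 3 arrays with high muscle markers and -4.48 (adjusted p = 0.0678) when the spread of values on each array entered the model. None of these passed the threshold over all features. The difference in WT hosts was -5.24 (adjusted p = 0.800) without the 3 arrays with high muscle markers, which leaves 1 WT array of each line. The part of muscle in the Igfbp5 values was not tested.

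Igfbp5 and Igfbp2 are neighbouring genes on chromosome 1, with no other gene starting between them in the RefSeq annotation of GRCm38.p6. The sequences just upstream are shown because the 2 neighbours differed so much in range. Each is the 150 bases before the RefSeq gene start (GRCm38.p6), and capitals mark GGGCGG, the core of the GC box, searched on both strands. Igfbp5 lies on the minus strand at chr1:72874866-72875015 and the first of 2 listed starts of Igfbp2 on the plus strand at chr1:72824330-72824479.
Igfbp5: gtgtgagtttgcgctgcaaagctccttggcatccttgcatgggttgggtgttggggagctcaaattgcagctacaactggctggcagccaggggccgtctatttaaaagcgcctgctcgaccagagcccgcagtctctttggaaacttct
Igfbp2: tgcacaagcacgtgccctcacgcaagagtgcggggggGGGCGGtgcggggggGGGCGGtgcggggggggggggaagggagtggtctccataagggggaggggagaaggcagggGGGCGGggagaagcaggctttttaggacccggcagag
The word was found before the first Igfbp2 start, and neither the Igfbp5 window nor that before the second Igfbp2 start holds it. It is held by 28.6% of 32851 RefSeq promoter windows of this length. Among the 8 genes 3 have a window with it, Igf1r, Igfbp2 and Igfbp7. This is a description of the letters only.

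Igfbp2, which binds IGF2 with high affinity, was 6.43 and 6.56 in 4T1OE tumours of Nlrx1-/- hosts and 6.57 and 6.41 in those of WT hosts. On 4T1OE-CTL arrays it was 7.25 and 6.71 in Nlrx1-/- hosts and 6.82 and 6.71 in WT hosts. On parental arrays it was 6.55 and 6.45 in Nlrx1-/- hosts, and 6.81 and 6.65 in WT hosts. All were above the negative control medians of their arrays. These ran from 5.24 to 5.41 on 4T1OE, 5.27 to 5.68 on 4T1OE-CTL and 5.29 to 5.96 on parental arrays. Every 4T1OE value lay below every 4T1OE-CTL value. How many of all features separate these lines was not counted. At an unadjusted p under 0.05 (limma) stood 24.2% of all features, while Igfbp2 was at 0.065. The difference in Igfbp2 was -0.38 (95% interval -0.79 to 0.03, limma adjusted p = 0.236), against a median of -0.05 over all features.

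Igfbp3, the main carrier of IGFs in serum, was 10.64 and 9.21 in 4T1OE tumours of Nlrx1-/- hosts and 10.9999 and 11.57 in those of WT hosts. In 4T1OE-CTL tumours it was 10.71 and 10.16 in Nlrx1-/- hosts and 10.99 and 9.77 in WT hosts. Parental tumours had 8.94 and 11.08 in Nlrx1-/- hosts, and 12.29 and 10.51 in WT hosts. Both WT 4T1OE values lay above all 4T1OE-CTL values, while those of Nlrx1-/- 4T1OE overlapped them. The share of all features with such an order was not counted. The pooled standard deviation between pools was 0.856, exceeded by 3.00% of all features. The difference between Nlrx1-/- and WT hosts was -0.57 (95% interval -1.46 to 0.32). Between 4T1OE and 4T1OE-CTL tumours it was 0.20 (-0.83 to 1.22, limma adjusted p = 0.825), with 0.90 in WT hosts (-0.56 to 2.37, adjusted p = 0.790) and -0.51 in Nlrx1-/- hosts (-1.97 to 0.95, adjusted p = 0.683).

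Igfbp7, a secreted protein of vessel walls and matrix with low affinity for IGFs, was 16.10 and 14.71 in 4T1OE tumours of Nlrx1-/- hosts and 15.10 and 16.00 in those of WT hosts. The 4T1OE-CTL values were 15.74 and 14.99 in Nlrx1-/- hosts and 15.52 and 14.97 in WT hosts. The parental values were 14.52 and 16.17 in Nlrx1-/- hosts, and 16.19 and 15.85 in WT hosts. All 4 4T1OE-CTL arrays lay below the 3 fitted parental arrays, and the array left out lay below all of these. The share of all features that separate these lines was not counted, and 15.9% stood at an unadjusted p under 0.05 (limma). The difference between 4T1OE-CTL and parental tumours was -0.77 (95% interval -1.53 to -0.00, unadjusted p = 0.0488, limma adjusted p = 0.311), and it was -0.38 with all 12 arrays. Between 4T1OE and 4T1OE-CTL tumours Igfbp7 overlapped, with a difference of 0.17 (-0.53 to 0.87, limma adjusted p = 0.772). Endothelial markers, 10 of 10 measured, had list means of 7.94 to 8.71 on 4T1OE, 7.44 to 8.03 on 4T1OE-CTL and 7.85 to 8.87 on fitted parental arrays. Pericyte markers, 6 of 6 measured, had means of 6.73 to 7.47 on 4T1OE, 6.30 to 6.67 on 4T1OE-CTL and 6.91 to 7.43 on fitted parental arrays. None of either list was below background on all 12 arrays, and their part in the Igfbp7 values was not tested.

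The closest relation among the 8 genes in r was between Igfbp3 and Igfbp7. Over the 11 fitted arrays Pearson's r was 0.766 (permutation p = 0.00399) and Spearman's rho 0.773 (permutation p = 0.00765), with adjusted p of 0.112 and 0.107 over the 28 pairs of the 8 genes. Without the 2 arrays farthest from the median of Igfbp3 r was 0.602. Igf1r and Igfbp2 had r = -0.754 (permutation p = 0.0117, adjusted p = 0.164) and rho = -0.409, and r was -0.284 with all 12 arrays. For Igfbp3 and Igfbp4 r was -0.655 (permutation p = 0.0323, adjusted p = 0.265) and rho -0.427, with r = -0.077 over all 12 arrays. Igf1 and Igfbp4 had r = 0.612 (permutation p = 0.0378, adjusted p = 0.265) and rho = 0.791 (permutation p = 0.00550, adjusted p = 0.107), and r was 0.433 without the 2 arrays farthest from the median of Igf1 and 0.277 with all 12 arrays. No pair passed the adjustment in r or rho. The arrays share lines, hosts and differing spreads of values, so these relations are not between independent tumours of 1 kind.

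**Figure D2:**
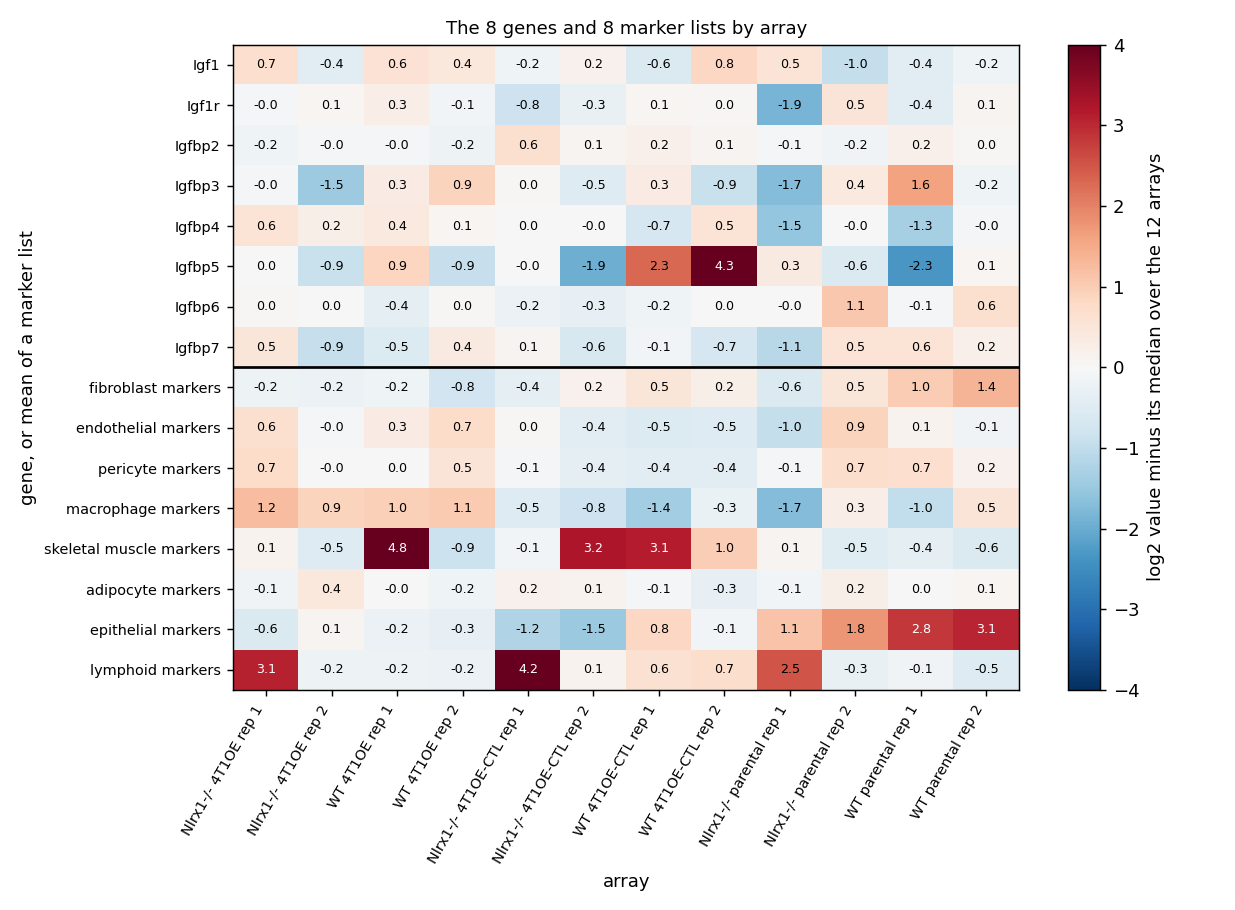
Log2 value minus its median over the 12 arrays (colour and printed number) for the 8 genes and, under the line, the mean of each of 8 marker lists, by array (columns). Igfbp5 is high on the WT 4T1OE-CTL arrays.

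Igfbp4, an inhibitory binding protein cleaved by the protease PAPP-A, was 15.83 and 15.52 in 4T1OE tumours of Nlrx1-/- hosts and 15.66 and 15.34 in those of WT hosts. Tumours of the 4T1OE-CTL line had 15.28 and 15.27 in Nlrx1-/- hosts and 14.60 and 15.81 in WT hosts. Tumours of parental 4T1 had 13.74 and 15.26 in Nlrx1-/- hosts, and 13.94 and 15.23 in WT hosts. All 4 4T1OE arrays lay above all parental arrays, the closest values being 15.34 and 15.26. How many of all features separate these lines was not counted, and 13.8% stood at an unadjusted p under 0.05 (limma). The difference between 4T1OE and parental tumours was 0.73 (95% interval -0.02 to 1.48, unadjusted p = 0.0552, limma adjusted p = 0.375). Between 4T1OE and 4T1OE-CTL tumours it was 0.35 (-0.34 to 1.04, adjusted p = 0.519). Pappa itself lay under the negative control median on all 12 arrays.

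Igfbp6, which prefers IGF2 to IGF1, was 5.99 and 5.97 in 4T1OE tumours of Nlrx1-/- hosts and 5.59 and 5.99 in those of WT hosts. On 4T1OE-CTL arrays it was 5.72 and 5.62 in Nlrx1-/- hosts and 5.78 and 5.97 in WT hosts. On parental arrays it was 5.94 and 7.04 in Nlrx1-/- hosts, and 5.88 and 6.60 in WT hosts. Replicate 2 of each parental group was higher than every other array, and the value on the array left out of the fits lay under its negative control median. On 4T1OE-CTL arrays these medians were 5.68 and 5.55 in Nlrx1-/- hosts and 5.47 and 5.27 in WT hosts. On WT parental replicate 1 the median was 5.64. The lower side of the differences below is therefore near background. The difference between 4T1OE-CTL and parental tumours was -0.77 (95% interval -1.33 to -0.21, unadjusted p = 0.0113, limma adjusted p = 0.157), and without WT parental replicate 1 it was -1.05 (adjusted p = 0.0320). Without Nlrx1-/- parental replicate 2 it was -0.46 (adjusted p = 0.652), the highest adjusted p of the settings tried. Between 4T1OE and parental tumours it was -0.66 (-1.22 to -0.10, adjusted p = 0.270). Epithelial markers (10 of 10 measured) and fibroblast markers (9 of 10) differed by line. Epithelial list means were 8.73 to 9.42 on 4T1OE, 7.82 to 10.1 on 4T1OE-CTL and 11.1 to 12.4 on fitted parental arrays. Fibroblast means were 8.06 to 8.66, 8.45 to 9.32 and 9.31 to 10.2 in the same lines. Within the fitted parental arrays the lists did not follow Igfbp6. Nlrx1-/- parental replicate 2, the highest in Igfbp6, had epithelial and fibroblast means of 11.1 and 9.31, the lowest of these arrays. WT parental replicate 1, the lowest in Igfbp6, had 12.1 and 9.83, and WT parental replicate 2 had 12.4 and 10.2. The part of either list in the Igfbp6 values was not tested.

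Seen by comparison, 0 of the 8 genes were called between 4T1OE and 4T1OE-CTL tumours, where 4.73% of all features were called, 1051 of 22206. The 8 differences ran from -1.40 (Igfbp5) to 0.35 (Igfbp4), with a median of 0.18. Between 4T1OE-CTL and parental tumours 0 were called against 2.59% of all features, with differences from -0.79 (Igfbp3) to 2.36 (Igfbp5, 95% interval 0.13 to 4.60, limma adjusted p = 0.287). That Igfbp5 value was 1.36 without WT 4T1OE-CTL replicate 2, 1.40 without WT parental replicate 1 and 3.67 (adjusted p = 0.00590) when the spread of values on each array entered the model. Between 4T1OE and parental tumours 0 were called against 1.33%, with differences from -0.66 (Igfbp6) to 0.97 (Igfbp5, -1.27 to 3.20). Between Nlrx1-/- and WT hosts 0% of features were called, none of the 8 among them, with 955 features at an unadjusted p under 0.05. The host differences ran from -1.62 (Igfbp5, -3.40 to 0.16) to 0.26 (Igfbp4, -0.34 to 0.86). For so few genes, 0 calls is near these background shares and is not a result about the family. The comparisons of lines share arrays, so their values are not independent of each other.

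**Figure D3:**
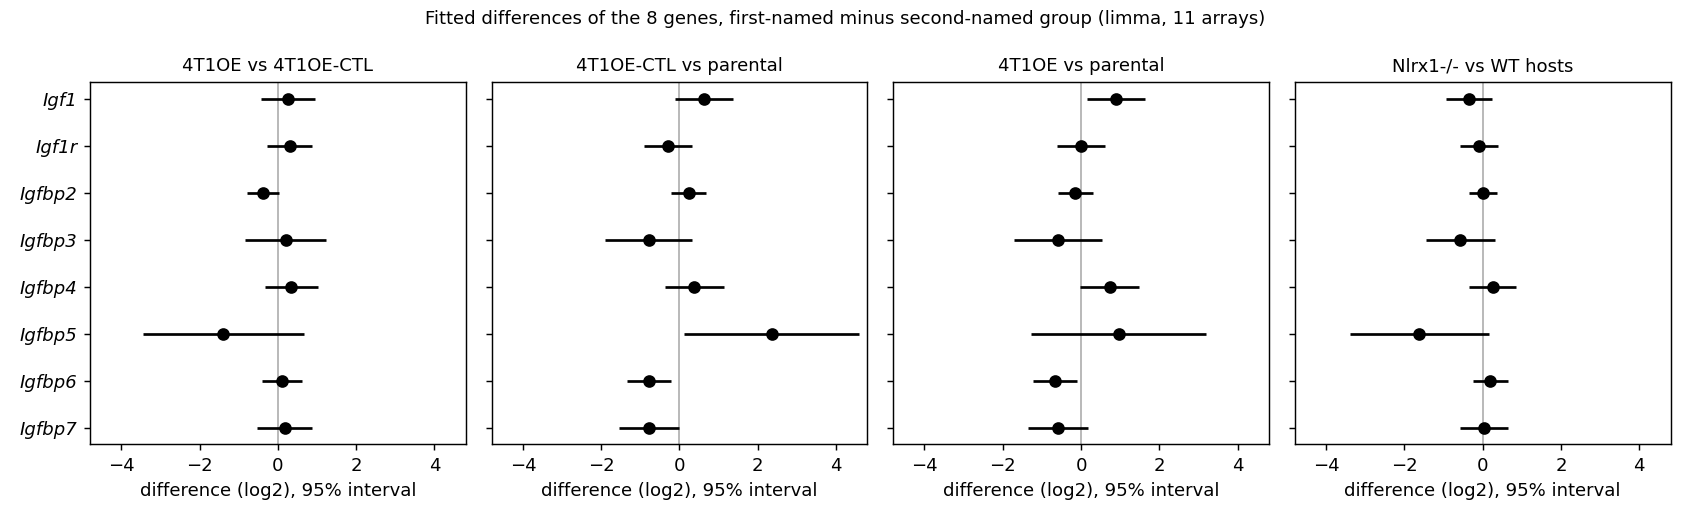
Fitted log2 difference (point) with its 95% interval (line) for the 8 genes in 4 comparisons, the first-named minus the second-named group, from limma on 11 arrays. Igfbp5 has the widest intervals, and Igfbp2 differs by -0.38 between 4T1OE and 4T1OE-CTL tumours with an interval of -0.79 to 0.03.

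The other genes of the pathway were taken from a list of 28, of which 26 were measured. They comprise ligands and receptors, receptor adaptors, downstream kinases and transcription factors, and the proteases and stanniocalcins that control the binding proteins. Irs4, Grb14, Igfbp1, Igfbpl1, Igfals, Pappa, Pappa2 and Stc2 lay under the negative control median on all 12 arrays. Between 4T1OE and 4T1OE-CTL tumours 4 of the 26 rose, 0 fell and 22 did not pass, and the list median was 0.03. Among all 22206 features 4.73% were called there, 820 higher and 231 lower. Igf2r, whose product removes IGF2 and carries lysosomal enzymes, was 14.61 and 15.02 in Nlrx1-/- and 14.83 and 13.89 in WT hosts on 4T1OE arrays, against 12.54 and 13.19 in Nlrx1-/- and 13.23 and 13.52 in WT hosts on 4T1OE-CTL arrays. The lines did not overlap, and Igf2r rose by 1.47 (SE 0.301, limma adjusted p = 0.0246). In Nlrx1-/- hosts alone it rose by 1.95 (adjusted p = 0.0473), as 1 of the 26, and that call ended in 8 of 11 fits with 1 array left out. The share of all features called in that comparison was 1.19%, 244 higher and 21 lower.

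Irs2, an adaptor that links insulin and IGF receptors to PI3-kinase, was 9.995 and 9.53 in Nlrx1-/- and 9.54 and 10.10 in WT hosts on 4T1OE arrays, against 8.37 and 7.498 in Nlrx1-/- and 7.69 and 9.05 in WT hosts on 4T1OE-CTL arrays, and it rose by 1.64 (SE 0.320, limma adjusted p = 0.0217). Ghr, whose product switches on Igf1 in many tissues, rose by 1.11 (adjusted p = 0.0384), and the adaptor gene Shc1 by 0.88 (adjusted p = 0.0379). For all 4 genes the 4T1OE arrays lay above the 4T1OE-CTL arrays. These genes were picked for passing on the same arrays, so the separation is no further support. The 4 calls ended with all 12 arrays (adjusted p 0.135 to 0.316) and when the spread of values on each array entered the model (0.561 to 0.701). They also ended without the 2 arrays with high lymphoid markers (0.0942 to 0.177) and without the 3 with high muscle markers (0.237 to 0.403), and those of Shc1 and Ghr after quantile normalization (0.0801 and 0.121). Leaving out 1 of the 11 arrays at a time ended the call of Igf2r 5 times, Irs2 5 times, Shc1 8 times and Ghr 8 times, with adjusted p up to 0.132. In those fits the differences were 1.22 to 1.71 for Igf2r, 1.41 to 1.96 for Irs2, 0.78 to 0.98 for Shc1 and 0.88 to 1.29 for Ghr, and with all 12 arrays they equalled those of the 11. With the spread of values in the model they were 1.06 for Igf2r, 0.72 for Irs2, 0.46 for Shc1 and 1.11 for Ghr. The macrophage list means given above also separate these lines, and their part was not tested.

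Between 4T1OE-CTL and parental tumours 3 of the 26 fell and 0 rose, with a list median of -0.23. Among all 22206 features 2.59% were called there, 215 higher and 360 lower. Irs1, the other main IGF receptor adaptor, was 7.02 and 6.15 in Nlrx1-/- and 6.18 and 7.22 in WT hosts on 4T1OE-CTL arrays, against 5.75 and 9.11 in Nlrx1-/- and 9.10 and 7.94 in WT hosts on parental arrays. It fell by 2.09 (SE 0.348, limma adjusted p = 0.00919), and the 5.75 belongs to the array left out of the fit. Foxo1, a transcription factor that insulin and IGF signalling keeps out of the nucleus, fell by 2.24 (SE 0.486, adjusted p = 0.0331), and Igf2r by 1.74 (SE 0.328, adjusted p = 0.0174). The 3 calls ended with all 12 arrays (adjusted p 0.163 to 0.482) and without the 3 arrays with high muscle markers (0.113 to 0.138), and Foxo1 also when the spread of values on each array entered the model (0.0643). With all 12 arrays the differences were -1.33 for Irs1, -1.15 for Igf2r and -1.84 for Foxo1. Leaving out Nlrx1-/- parental replicate 2 ended all 3 calls (Irs1 0.104, Igf2r 0.163 and Foxo1 0.254). The call of Igf2r also ended without WT parental replicate 2 (0.0662), and that of Foxo1 in 7 of the 11 fits in all. Between 4T1OE and parental tumours 0 of the 26 were called, against 1.33% of all features, with Irs1 at -1.56 (adjusted p = 0.0546). Both comparisons with calls use the same 4 4T1OE-CTL arrays, so their Igf2r values are not independent of each other.

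**Figure D4:**
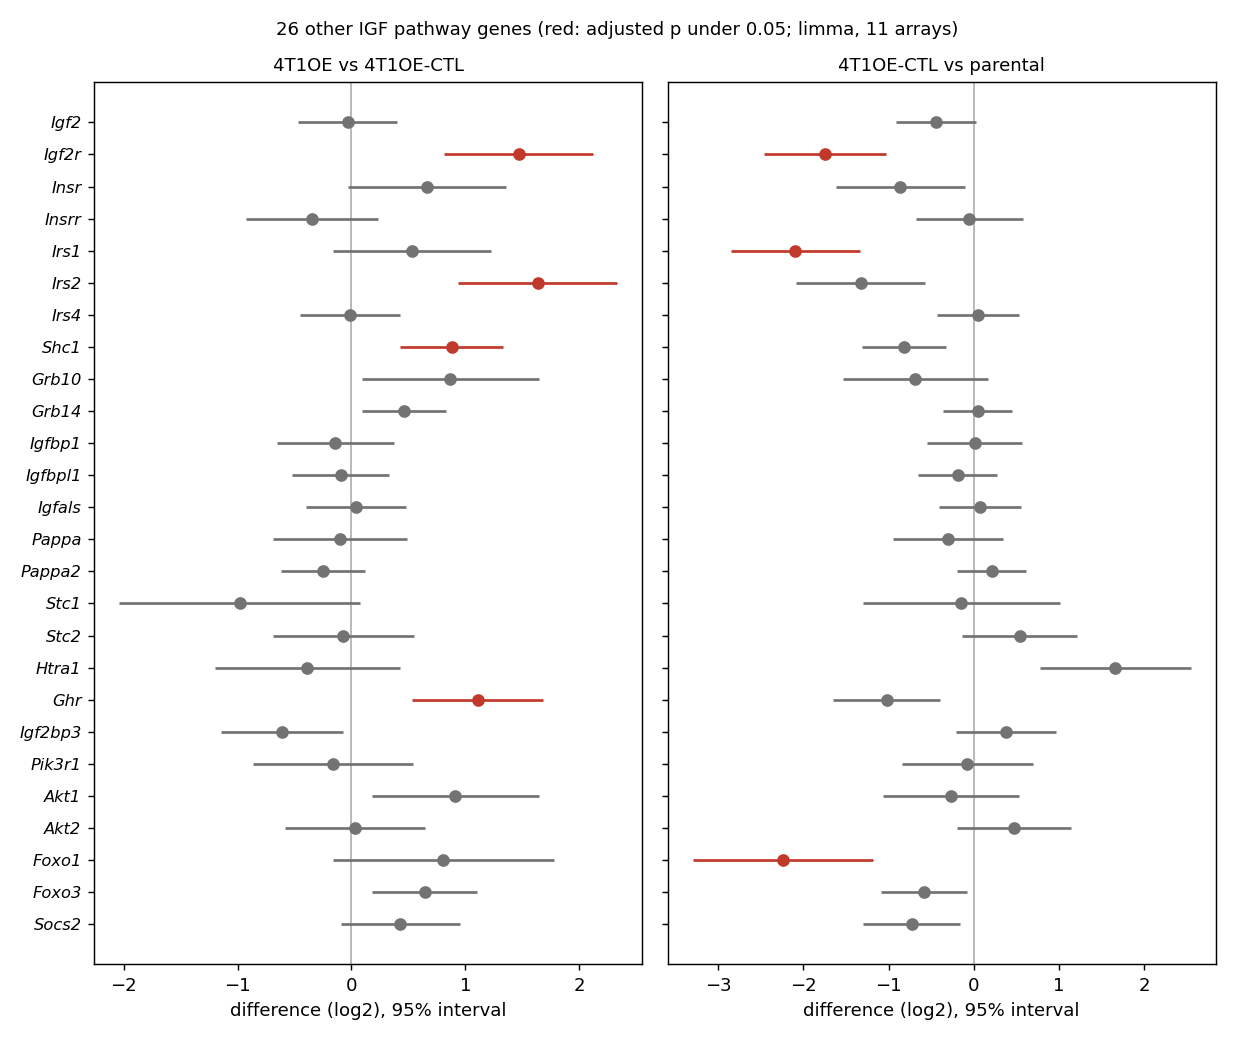
Fitted log2 difference (point) with its 95% interval (line) for 26 other IGF pathway genes (rows) between 4T1OE and 4T1OE-CTL tumours (left) and between 4T1OE-CTL and parental tumours (right). Red marks an adjusted p under 0.05, which holds for Igf2r, Irs2, Shc1 and Ghr on the left and Igf2r, Irs1 and Foxo1 on the right.

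For each of the 8 genes the most alike patterns were sought among 9954 features with a gene symbol and a mean above the median feature, by Pearson's r over the 12 arrays, as a description. The highest r of so many features over 12 arrays can be high by chance, so no link between genes is drawn from it. Igfbp5 was most like Ube2v1 (r = 0.885), Cox17 (0.852) and Ercc6 (0.830). Igfbp3 was most like Cetn4 (0.866), the basement membrane gene Nid1 (0.834) and Igfbp7 (0.829). Igfbp7 was most like Nid1 (0.884), Pdgfrl (0.865) and the pericyte receptor gene Pdgfrb (0.865). Igf1 was most like Rnaseh2b (0.908) and the S-phase genes Orc1 (0.878) and Tk1 (0.878). Igfbp4 was most like Dhrs7 (0.970), Itm2b (0.962) and Dnm2 (0.960), and Igf1r most like Atp2a2 (0.976), Asah1 (0.974) and Rab1a (0.971). Igfbp2 was most like Itfg2 (0.916), Nfkbil1 (0.876) and Clec2g (0.853), and Igfbp6 most like Fam20c (0.905), Urah (0.902) and Gm5148 (0.887). Without the array left out of the fits these 24 correlations ran from 0.766 to 0.968.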

How the data were processed

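The deposited values are log2 expression of transcript clusters, which the authors had normalized and summarised before deposit. Their method is not given in the sources used here. Transcriptome Analysis Console is named, without a version, per the submitters' processing notes. No genome build is named with the values. The values were used as deposited. Control features (6640 of 28846) were removed, and the 22206 others were all tested. Each of the 8 genes had 1 feature.

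The test was two-sided moderated linear modelling (limma 3.58.1 under R 4.3.3). Its p-values were adjusted by Benjamini-Hochberg across the 22206 features, at a threshold of 0.05. An additive model of host and line gave the comparisons over hosts or lines, and a model with 1 mean per group those within a host and the interaction. The fits used 11 arrays, so 1 Nlrx1-/- parental array remained, assumed to vary like the others. The background was the median of 5222 negative control features of each array. Permutation p-values of correlations used 100000 resamples in scipy 1.17.1 and are two-sided.

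In simulated data with the real means and spread (22206 features, 4T1OE against 4T1OE-CTL), 88.0% of features changed by 2 log2 units were recovered and 31.7% of those changed by 1. The simulated noise was independent for each feature, without effects shared over an array. These shares are over features of any spread. They do not give the recovery for Igfbp5 or Igfbp3, whose pooled standard deviations were 1.33 and 0.856, against 0.337 for the median feature. Genes named beyond the 8 are Nlrx1, the listed pathway genes that passed, those under background and the 3 most alike in pattern. The members, lists and settings were chosen with earlier results of these data known. Alternatives were all 12 arrays, quantile normalization, leaving out the dimmest 33.3% of features, a replicate block, the spread of values on each array as a model term and each array left out. Leaving out arrays high in lymphoid or muscle markers was added after seeing the data. The control array from the manufacturer has an empty column and was not used.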

Additional observations from a re-analysis of the deposited data

Results flagged for a closer look

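Igfbp6 was 5.59 on WT 4T1OE replicate 1, far below the other 3 4T1OE arrays at 5.97 to 5.99, which lie close together. The negative control median of that array was 5.26, so the value is near background. The same array had the highest mean of the skeletal muscle markers, 11.2, and the part of muscle was not tested. The gap was the only one to stand out among 24 sets of 4 arrays of a line (8 genes in 3 lines), and about 5% of such sets stand out by chance.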

How the results depend on the processing

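Over 18 alternative settings, 8 genes and 7 comparisons, 2 of 1008 values passed. Igfbp5 passed for 4T1OE-CTL against parental tumours when the standard deviation of each array was a covariate (3.67, adjusted p = 0.00590), which makes 1 gene called there in place of 0, and Igfbp6 was lower without WT parental replicate 1, so that with single arrays left out 0 to 1 genes were called in that comparison. None of the 56 differences had passed in the first place, and 94 of the 1008 values changed sign. For 4T1OE against 4T1OE-CTL, quantile normalization gave Igf1 -0.030, Igf1r -0.019, Igfbp3 -0.10 and Igfbp7 -0.14. The covariate gave Igf1 -0.060, Igf1r -0.039, Igfbp4 -0.50 and Igfbp6 -0.41, and leaving out the 3 arrays with high muscle markers gave Igfbp4 -0.019. With single arrays left out Igf1 ran from -0.049 to 0.48, Igfbp3 from -0.15 to 0.62 and Igfbp7 from -0.060 to 0.47. Igfbp5 was -0.80 between 4T1OE and parental tumours with the covariate and -7.5e-06 to 2.05 with single arrays left out. In Nlrx1-/- hosts its difference between 4T1OE and 4T1OE-CTL was -2.69 with the covariate, -0.41 without the muscle arrays and -0.41 to 1.504 with single arrays left out. The cause was not tested.

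The number of features called between 4T1OE and 4T1OE-CTL (1051) was 25 with all 12 arrays, 577 after quantile normalization, 4 with the covariate, 60 without the lymphoid arrays and 0 without the muscle arrays, with 2375 at an unadjusted p under 0.05 in limma. Leaving out 1 array at a time gave 70 (Nlrx1-/- 4T1OE replicate 1 omitted) to 2663 (the second WT 4T1OE-CTL array omitted). Between 4T1OE-CTL and parental (575) it was 157 with all 12 arrays, 153 without the muscle arrays and 126 to 880 with single arrays left out. Between 4T1OE and parental (295) it was 151 with the covariate, 98 without the lymphoid arrays, 69 without the muscle arrays and 83 to 342. In WT hosts (3) it was 0 with all 12 arrays (780 at an unadjusted p under 0.05) or without the muscle arrays (1007), 1 with the replicate block or without the lymphoid arrays and 1 to 12. In Nlrx1-/- hosts (265) it was 1 with all 12 arrays or the covariate, 57 after quantile normalization or with the replicate block, 419 without the dimmest features, 0 without the lymphoid (3773 at an unadjusted p under 0.05) or the muscle arrays (2714) and 0 to 1341. Between hosts (0) it was 0 to 1. Nothing says whether replicate numbers pair the samples. Among 15 pairs of groups the correlation of deviations ran from -0.309 to 0.608, with 4 above 0.1, which does not settle it. Lymphoid markers were high on replicate 1 of every Nlrx1-/- group. The replicate block (882 features between 4T1OE and 4T1OE-CTL) ended the calls of Ghr between the lines (adjusted p = 0.0505) and of Igf2r in Nlrx1-/- hosts (0.0682) and no other call of a gene named here. Fitting fewer arrays also leaves fewer degrees of freedom, and the number of arrays limits the precision throughout.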
